A study of Homo sapiens with 12 samples.

Results

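The 10 core genes of nucleotide excision repair were followed by name: ERCC1, ERCC2, ERCC3, ERCC4, ERCC5, ERCC6, ERCC8, XPA, RAD23B and DDB1. Every probe set annotated to a member alone was taken, which gave 21 of the 54675 probe sets and 10 of the 19775 genes named by a single symbol. The cells were HK-2, a human line immortalized from the proximal tubule epithelium of the kidney, cultured with epidermal growth factor, hydrocortisone, insulin and transferrin, and the RNA was hybridised to 12 Affymetrix arrays. The 4 groups, each of 3 biological replicates, were vehicle cells at 24 h, Kbr cells at 24 h, vehicle cells at 48 h and Kbr cells at 48 h, where Kbr was given at a low dose. Neither the concentration of Kbr nor its full name is in the labels used here, and HK-2 is a single line, so no second donor or line stands behind any value. The larger study looked for expression signatures of kidney toxicity, and the question here is whether transcripts of this repair pathway differed between exposed and unexposed cells.

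Nucleotide excision repair cuts out bulky, helix-distorting lesions within a short single strand and fills the gap. In its global branch, XPC with RAD23B and the DDB1-DDB2 complex find lesions anywhere in the genome, whereas in its transcription-coupled branch ERCC6 (CSB) and ERCC8 (CSA) act where RNA polymerase II has stalled. Both branches then use the TFIIH helicases ERCC3 (XPB) and ERCC2 (XPD) to open the helix, XPA to verify and organise the complex, and the nucleases ERCC5 (XPG) and ERCC1-ERCC4 (XPF) to cut on either side of the lesion, before DNA polymerase and ligase close the gap.

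The promoter windows of the 3 members that passed the test after 48 h, ERCC1, ERCC3 and RAD23B, are shown because these genes carry the result. They come from RefSeq on GRCh38.p14, run from 250 bases before to 50 bases after a transcription start, and are written in the direction of the gene. All 10 members matched this table, with 15 windows, and for a gene with several the window of highest GC content is shown. Capitals mark matches, on either strand, to the ETS core CCGGAAG, the GC box GGGCGG and the CCAAT box CCAAT, and matches can overlap. The ERCC1 window is chr19:45423479-45423778 on the minus strand, that of ERCC3 chr2:127294095-127294394 on the minus strand, and that of RAD23B chr9:107283029-107283328 on the plus strand.
ERCC1: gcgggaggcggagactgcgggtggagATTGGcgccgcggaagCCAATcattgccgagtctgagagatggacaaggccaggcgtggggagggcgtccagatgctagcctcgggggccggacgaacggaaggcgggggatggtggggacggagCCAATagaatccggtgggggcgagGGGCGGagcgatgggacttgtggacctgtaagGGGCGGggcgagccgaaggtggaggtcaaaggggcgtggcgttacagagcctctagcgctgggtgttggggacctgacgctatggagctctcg
ERCC3: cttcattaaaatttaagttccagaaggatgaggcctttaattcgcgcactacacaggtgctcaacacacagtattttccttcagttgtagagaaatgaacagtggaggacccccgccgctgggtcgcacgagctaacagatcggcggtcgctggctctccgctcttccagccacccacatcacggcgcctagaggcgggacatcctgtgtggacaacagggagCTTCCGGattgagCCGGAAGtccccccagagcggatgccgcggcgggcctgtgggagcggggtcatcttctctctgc
RAD23B: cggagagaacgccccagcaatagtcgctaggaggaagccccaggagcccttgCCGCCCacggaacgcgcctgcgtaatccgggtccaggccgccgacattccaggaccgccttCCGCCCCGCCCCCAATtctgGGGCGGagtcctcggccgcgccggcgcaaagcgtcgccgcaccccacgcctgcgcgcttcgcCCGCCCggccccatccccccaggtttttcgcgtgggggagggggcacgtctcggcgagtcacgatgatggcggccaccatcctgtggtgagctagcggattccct
The ERCC1 window held 2 GC boxes and 3 CCAAT boxes, the RAD23B window 5 GC boxes and 1 CCAAT box, and the ERCC3 window 2 ETS cores with neither of the others. Of the 35116 promoter windows in the table, 10.3% held the ETS core, 45.0% the GC box and 34.6% the CCAAT box. Among the 10 members' windows of highest GC, 3 held the ETS core, 8 the GC box and 4 the CCAAT box. The E-box CACGTG was in 1 member window against 7.3% of all, the CRE core TGACGT in 0 against 8.0%, and the antioxidant response core in its forms TGACNNNGC and TGAGNNNGC in 2 and 4 against 13.3% and 18.3%. All these member counts are from windows chosen for the highest GC of a gene, whereas the percentages are over all windows without that choice. Counts and percentages are therefore not on a like basis. These matches describe the letters of the windows only.

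Of the 21 member probe sets, 18 exceeded log2 4 in at least 3 arrays and were tested, and each of the 10 genes had at least 1 of them. The others were the second ERCC4 probe set 210158_at, at log2 values of 1.94 to 2.03, the ERCC8 probe set 1554882_at, at 3.03 to 3.15, and the RAD23B probe set 214422_at, at 2.91 to 3.44. A further probe set, 232287_at, is annotated to both PGBD3 and ERCC6 and was not used. Where a gene had several probe sets, that with the highest mean over the 12 arrays stood for it. Levels of different probe sets are not compared, since each binds its target with its own strength. On an array of bulk RNA, fewer cells of a kind and less RNA per cell cannot be told apart.

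Array medians lay between log2 values of 2.91 and 2.99, arrays of the same group correlated at 0.982 to 0.993, and no arrays were identical. All 5 epithelial markers lay above the floor, whereas of 10 proximal tubule markers on the array only PAX8 and CDH6 did, with LRP2, CUBN, SLC34A1, SLC5A2, AQP1, GGT1, ANPEP and MME not above it. Markers of endothelium, leukocytes and other nephron segments were above the floor in 0 of 4, 0 of 3 and 0 of 4 cases. Of 7 fibroblast markers COL1A1, DCN and LUM were above it, and their list's summed linear level was 5359 to 5646 in 48 h vehicle arrays and 1510 to 2169 in 48 h Kbr arrays, with all 3 of these genes past the test (limma). The epithelial markers had 3 of 5 past the test at 48 h, each lower in Kbr cells, where 42.8% of all genes passed. KRT8 and KRT18 did not pass at 48 h, with log2 changes of -0.66 and 0.36 (limma adjusted p = 0.0843 and 0.087). At 24 h 2 epithelial and 2 fibroblast markers were already lower past the test, where 5.74% of all genes passed. CDH6 also fell at 48 h, with a log2 change of -1.51 (limma adjusted p = 0.000901). PAX8 stood higher at 24 and 48 h, at 0.53 and 0.40, without passing (limma adjusted p = 0.137 and 0.128). The summed level of the proximal tubule list at 48 h was 7515 to 10162 in vehicle and 4255 to 5368 in Kbr arrays. That lower sum does not stand for a fall of both genes. The 3′ excess over 5′ signal of the ACTB controls, which grows as RNA degrades, was higher with Kbr in 5 of 6 replicate pairs, and that of the GAPDH controls in 1 of 6. The part of these shifts in the results was not tested.

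**Figure D1:**
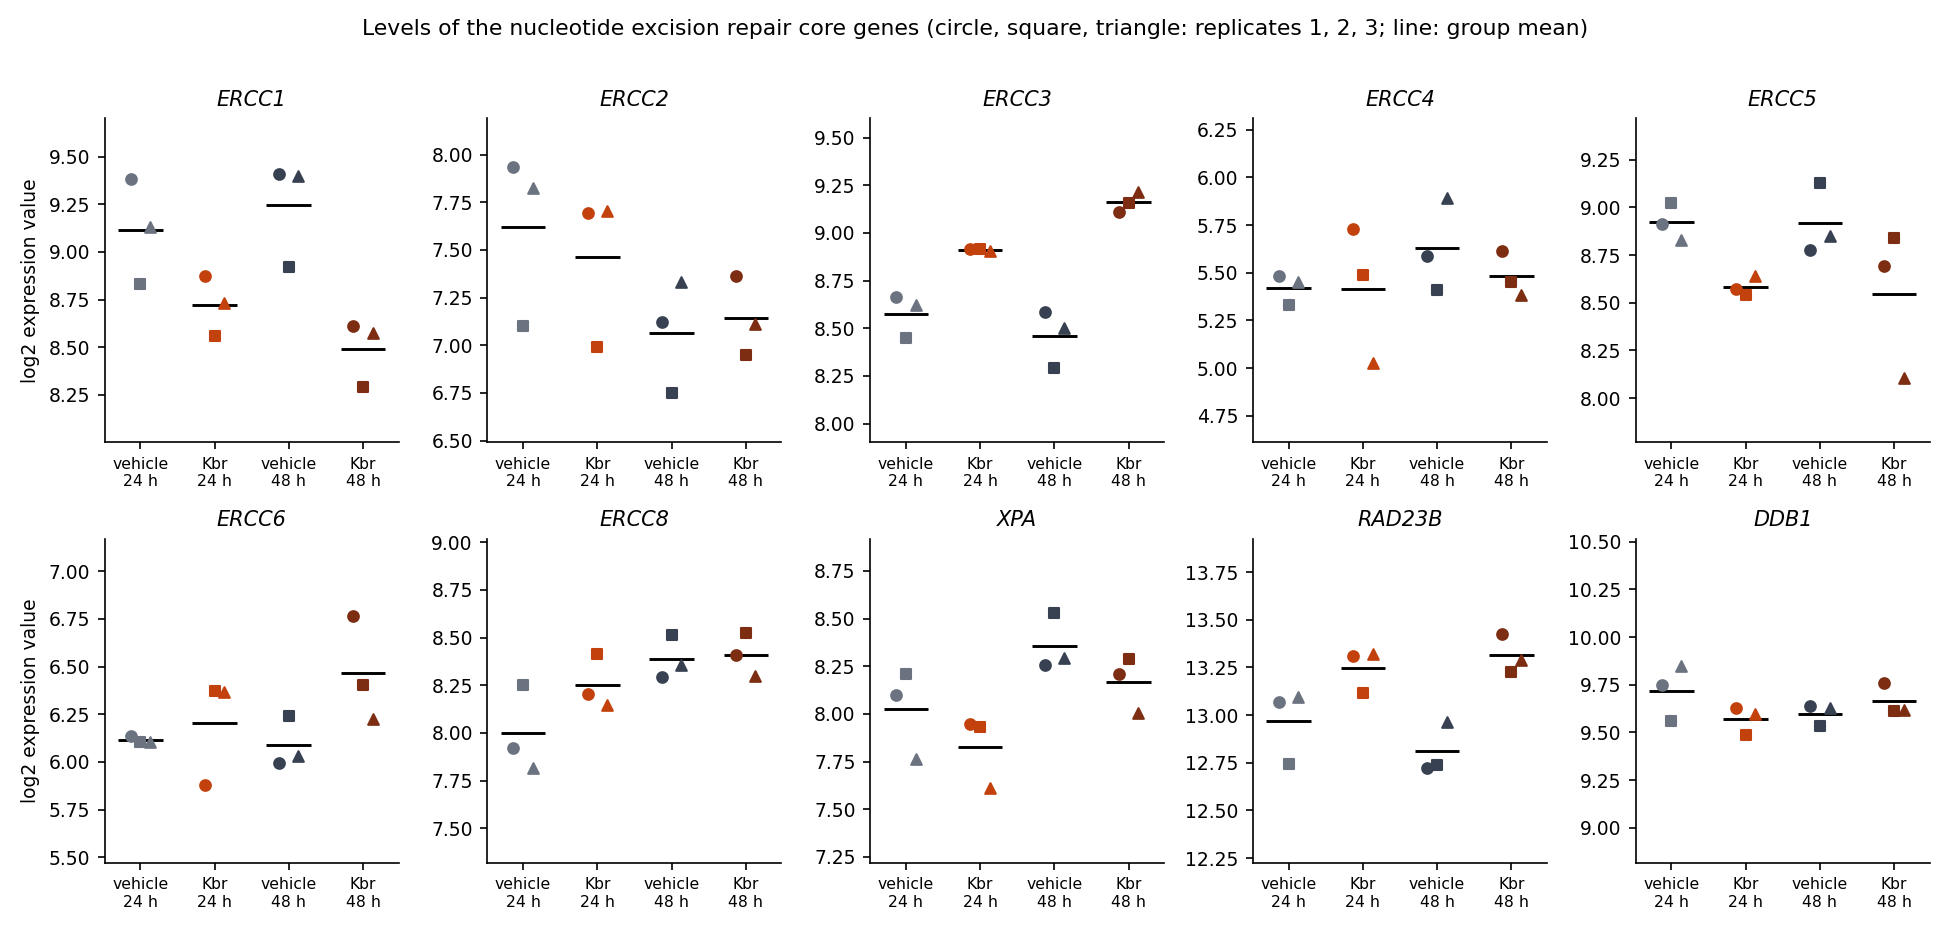
Log2 expression value (vertical axis) of the probe set that stands for each of the 10 genes, in the 4 groups along the horizontal axis. Circles, squares and triangles are replicates 1, 2 and 3, and the line is the group mean. Every panel spans the same height in log2 units, from a different start. The 48 h Kbr arrays lie below all 48 h vehicle arrays for ERCC1 and above them for ERCC3 and RAD23B, and overlap them in the other 7 panels.

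After 48 h of Kbr, 3 of the 10 core genes passed the test: ERCC1 fell 1.68-fold, while ERCC3 rose 1.63-fold and RAD23B rose 1.42-fold (limma, adjusted p under 0.05 by Benjamini-Hochberg over all 10665 genes tested). Of all genes tested, 42.8% passed in this comparison, and 3 of 10 is read against that share. Counted by probe set, 10 of 18 passed, against 38.6% of all probe sets, so the order of the shares turned with the unit counted. ERCC1 and RAD23B each entered that count with 3 probe sets past the test, which are not separate observations. The members' median log2 change was 0.04 against -0.0038 over all genes, and their median absolute change was 0.28 against 0.35. The Kbr and vehicle arrays did not overlap for the same 3 genes, where 50.9% of all genes had no overlap. After 24 h none of the 10 passed (limma), against 5.74% of all genes, although 3 had an unadjusted p under 0.05, against 23.7% of all genes.

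The replicate numbers of the labels pair the arrays, and a fit with the number as a block removes the shared part of their spread. In that fit 4 of 10 members passed at 24 h, against 24.4% of all genes. ERCC1 was then lower by a log2 change of -0.40 (adjusted p = 0.0091) and ERCC3, ERCC8 and RAD23B higher by 0.33, 0.26 and 0.28 (adjusted p = 0.0173, 0.0309 and 0.045). At 48 h the block left 3 members past the test, namely ERCC1, ERCC3 and RAD23B again, against 57.5% of all genes. In 5 of 10 members the 6 replicate pairs all ran the same way, lower with Kbr for ERCC1, ERCC5 and XPA and higher for ERCC3 and RAD23B, and 52.0% of all genes did likewise.

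Among the genes of damage recognition, RAD23B encodes the partner that stabilises XPC. Its probe set 201222_s_at read log2 values of 12.72, 12.74 and 12.97 in 48 h vehicle replicates 1, 2 and 3, and 13.43, 13.23 and 13.29 in 48 h Kbr replicates. Every Kbr array lay above every vehicle array at that time. The group means were 12.81 ± 0.14 and 13.31 ± 0.10 (SD, n = 3), a log2 change of 0.51 (SE 0.12, 95% interval 0.24 to 0.77, limma adjusted p = 0.00682). At 24 h the values were 13.07, 12.74 and 13.10 in vehicle and 13.31, 13.12 and 13.32 in Kbr cells, again without overlap, and the change of 0.28 did not pass (limma adjusted p = 0.191). The other tested RAD23B probe sets, 201223_s_at and 223598_at, rose at 48 h by log2 changes of 0.54 and 0.47 (limma adjusted p = 0.0035 and 0.00786). At 24 h they stood at 0.35 and 0.41 without passing, with adjusted p of 0.104 and 0.0719, and the block brought 223598_at past the test (adjusted p = 0.00995). Probe set 201222_s_at, past the test with the block among genes, was not past it with the block among all probe sets (adjusted p = 0.0579). All 3 probe sets were higher with Kbr in 6 of 6 replicate pairs. The 48 h calls of these probe sets held in 12 of 12 fits that each left out 1 array.

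DDB1, the adaptor that ties DDB2 and ERCC8 to the CUL4 ubiquitin ligase, read 9.64, 9.53 and 9.63 in 48 h vehicle arrays and 9.76, 9.61 and 9.62 in 48 h Kbr arrays. The groups overlapped, and the log2 change of 0.06 (95% interval -0.15 to 0.28) did not pass (limma adjusted p = 0.619). At 24 h DDB1 stood at -0.15 (limma adjusted p = 0.374).

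DDB2 and XPC, the lesion sensors that work with DDB1 and RAD23B, are no members of the core list and moved downward. DDB2 read 7.75, 7.74 and 8.14 in 48 h vehicle arrays against 6.76, 6.64 and 6.53 in Kbr arrays, and 8.39, 8.18 and 8.01 against 7.23, 7.16 and 6.87 at 24 h. No Kbr array reached the lowest vehicle array at either time. DDB2 fell by log2 changes of 1.11 at 24 h and 1.23 at 48 h (limma adjusted p = 0.0038 and 0.000166), a 2.35-fold lower level at 48 h. XPC fell by 0.53 at both times (limma adjusted p = 0.0442 and 0.00826), but its 24 h call did not hold in 9 of 12 fits with 1 array removed, where the adjusted p reached 0.144. CETN2, the centrin of the XPC complex, named after its value was seen, also fell at 48 h by 0.53 (limma adjusted p = 0.00309). All 3 tested recognition genes outside the core were thus lower at 48 h while RAD23B was higher, where 42.8% of all genes passed.

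In the transcription-coupled branch, ERCC6 and ERCC8 each gave different calls from different probe sets. ERCC6 encodes the chromatin remodeller that binds stalled RNA polymerase II, and its brighter probe set 230108_at read 6.00, 6.24 and 6.03 in 48 h vehicle and 6.76, 6.40 and 6.23 in 48 h Kbr arrays. The lowest Kbr array lay just under the highest vehicle array, and the log2 change of 0.38 did not pass (limma adjusted p = 0.0811). The other, 207347_at, read 4.61, 4.62 and 4.40 against 5.56, 5.03 and 5.02. These groups did not overlap, and it rose by a log2 change of 0.66 (SE 0.15, limma over 19521 probe sets, adjusted p = 0.00598), in 12 of 12 fits that left out 1 array. Its vehicle values lay near the floor of 4, where the background model of the authors' processing weighs most. ERCC6 passed at the gene level, with 0.52 (limma adjusted p = 0.0108), when its probe sets were averaged. When 230108_at alone stood for the gene, 2 of 12 fits that left out 1 array passed among genes. They were those without 24 h Kbr replicate 1 (adjusted p = 0.0455) and without 48 h Kbr replicate 3 (adjusted p = 0.0375). Among all probe sets, 230108_at passed in 1 of 12 such fits (lowest adjusted p = 0.0444). Without 48 h Kbr replicate 1 the gene-level change was 0.23 (adjusted p = 0.277). At 24 h the changes were 0.09 and 0.21, with adjusted p of 0.786 for the gene and 0.453 for 207347_at (limma).

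ERCC8 encodes the substrate receptor of the ligase at stalled polymerases. Probe set 205162_at, which stands for the gene, read 8.29, 8.51 and 8.35 in 48 h vehicle and 8.41, 8.52 and 8.30 in 48 h Kbr arrays. The groups overlapped almost wholly, with a log2 change of 0.02 (95% interval -0.26 to 0.31, limma adjusted p = 0.912) that turned to -0.02 under repeated quantile normalization. Probe set 1554883_a_at read 7.48, 7.90 and 8.03 against 8.24, 8.47 and 8.32, with no overlap. It rose by 0.54 (limma over all probe sets, adjusted p = 0.0236), with 6 of 6 replicate pairs higher. That call was lost without 48 h vehicle replicate 1 (change 0.38, adjusted p = 0.0879) and without 48 h Kbr replicate 2 (change 0.48, adjusted p = 0.0803). It was also lost without the filter (adjusted p = 0.0577) and in a fit of the compared groups alone (adjusted p = 0.053), and it stayed with the block (adjusted p = 0.00176). The third tested ERCC8 probe set, 220716_at, stood at 0.30 (limma adjusted p = 0.22). At 24 h the 3 ERCC8 probe sets stood at 0.26, 0.43 and 0.26 and did not pass without the block, whereas 205162_at and 1554883_a_at passed with it (adjusted p = 0.043 and 0.0181). The difference between probe sets of the same gene was not tested, and probe sequences were not used here.

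Of the 8 other genes of this branch, 4 rose and 0 fell at 48 h (limma, adjusted p under 0.05), where 42.8% of all genes passed. USP7, a ubiquitin protease that acts on the stalled polymerase complex, read 8.81, 8.68 and 8.73 in vehicle and 9.40, 9.44 and 9.62 in Kbr arrays. It rose by a log2 change of 0.75 (limma adjusted p = 0.000177), with no overlap. POLR2A, POLR2B and TCEA1 were the others, at 0.63, 0.38 and 0.40, named after their values were seen. POLR2A and POLR2B are subunits of RNA polymerase II and TCEA1 is an elongation factor. The TCEA1 call held in 3 and the POLR2B call in 9 of 12 fits that left out 1 array, where the adjusted p reached 0.11 and 0.0773. With the block XAB2, which binds XPA and is named for this change of call, was past the test as well, at 0.53 (limma adjusted p = 0.259 without the block and 0.00618 with it).

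**Figure D2:**
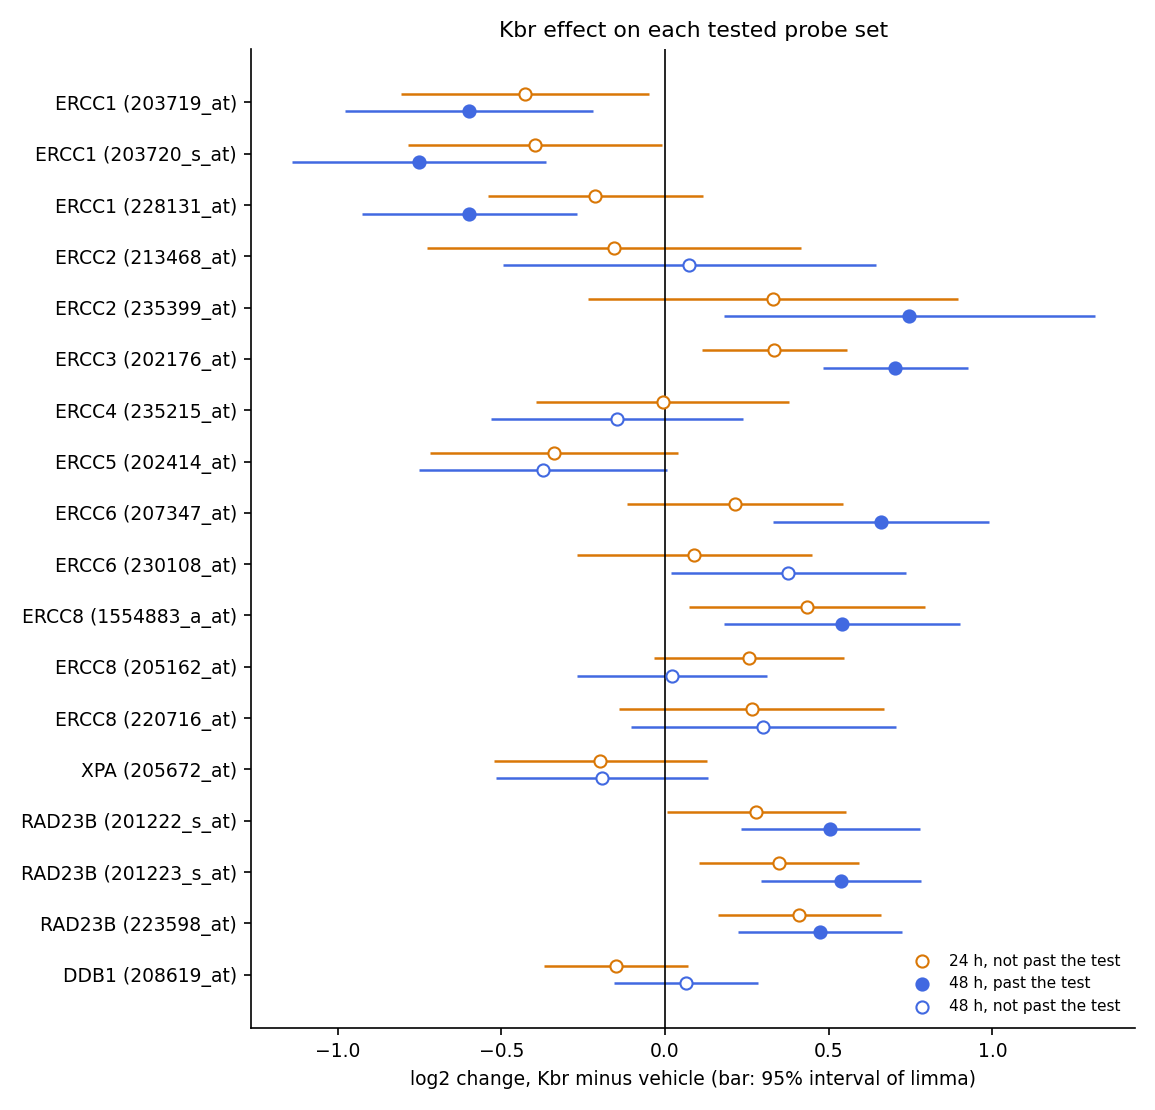
Log2 change of Kbr against vehicle (horizontal axis) for each of the 18 tested member probe sets, at 24 h in orange and at 48 h in blue, with the 95% interval of limma as bars and filled points for those past the test. The 3 ERCC1 probe sets lie left of 0 and the 3 RAD23B probe sets right of 0 at 48 h, while those of ERCC2, ERCC6 and ERCC8 hold both filled and open points.

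Among the helicases of TFIIH, ERCC3, the translocase that opens the helix, had the smallest adjusted p of the 10 members at 48 h. Its only probe set, 202176_at, read 8.58, 8.29 and 8.50 in 48 h vehicle arrays and 9.11, 9.16 and 9.21 in 48 h Kbr arrays. At 24 h it read 8.66, 8.45 and 8.62 against 8.91, 8.91 and 8.90. At both times each Kbr array lay above each vehicle array, and the 24 h Kbr replicates lay closer together than those of any other group. At 48 h the means were 8.46 ± 0.15 and 9.16 ± 0.05 (SD, n = 3), and ERCC3 rose by a log2 change of 0.70 (SE 0.097, 95% interval 0.49 to 0.92, limma adjusted p = 0.000344). At 24 h the change was 0.33 (SE 0.097), which did not pass without the block (limma adjusted p = 0.066). Ordered by mean, its 4 groups ran from 48 h vehicle and 24 h vehicle, which overlapped, to 24 h Kbr and then 48 h Kbr, each apart from its neighbour.

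ERCC2, the helicase that checks for the lesion, had 2 tested probe sets that gave different calls. The brighter, 213468_at, read 7.12, 6.75 and 7.33 in 48 h vehicle arrays and 7.37, 6.95 and 7.11 in 48 h Kbr arrays. Replicate 2 was the lowest of each group at both times, the groups overlapped, and the log2 change of 0.07 (95% interval -0.49 to 0.64) did not pass (limma adjusted p = 0.842). The other, 235399_at, read 5.86, 5.50 and 5.79 against 6.74, 6.05 and 6.60, without overlap, and rose by 0.75 (SE 0.26, limma adjusted p = 0.0399). This call held in only 4 of 12 fits that left out 1 array, with changes of 0.61 to 0.95 and adjusted p up to 0.127. It was lost without any of the 48 h vehicle replicates, without replicate 1 or 3 of the 48 h Kbr cells, without replicate 1 or 3 of the 24 h Kbr cells and without 24 h vehicle replicate 1, and also without the filter (adjusted p = 0.115). With the block the call stayed (adjusted p = 0.00194), as in 6 of 7 alternatives other than leaving out an array, the block included. At 24 h the 2 probe sets stood at -0.16 and 0.33 and neither passed (limma adjusted p = 0.765 for the gene and 0.506 for 235399_at).

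Of the 7 other tested TFIIH genes, 4 rose and 1 fell at 48 h (limma, adjusted p under 0.05; 42.8% of all genes passed). GTF2H1, a core subunit, read 8.97, 8.84 and 8.81 in vehicle against 10.11, 9.92 and 9.60 in Kbr arrays, and rose 2.01-fold (log2 change 1.00, limma adjusted p = 0.000225). It was also past the test at 24 h, at 0.50 (limma adjusted p = 0.0462), a call lost in 9 of 12 fits that left out 1 array, with adjusted p up to 0.15. MNAT1 and CCNH, which form the kinase module with CDK7, rose by 0.71 and 0.60 and GTF2H4 by 0.50, whereas the small subunit GTF2H5 fell by 0.41. These 4 were named after their values were seen, and the GTF2H4 call was lost without 48 h vehicle replicate 2 or 48 h Kbr replicates 1 or 2, where the adjusted p reached 0.066. CDK7 itself stood at 0.36, past the test with the block alone (limma adjusted p = 0.0898 without it and 0.00513 with it).

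XPA, the scaffold of the incision complex, read 8.25, 8.53 and 8.29 in 48 h vehicle arrays and 8.21, 8.29 and 8.00 in 48 h Kbr arrays. The groups overlapped, and although Kbr was lower in 6 of 6 replicate pairs, the log2 change of -0.19 did not pass (95% interval -0.51 to 0.13, limma adjusted p = 0.309). At 24 h it stood at -0.20 (limma adjusted p = 0.446). NCBP1, which overlaps XPA in the RefSeq annotation, rose at 48 h by 0.46 (limma adjusted p = 0.0181) and is named for this overlap. Of the single-strand binding proteins that XPA contacts, RPA1 stood at -0.15 and -0.06 at 24 and 48 h without passing (limma adjusted p = 0.364 and 0.637). RPA3, named after its value was seen, fell by 0.51 at 48 h (limma adjusted p = 0.00963).

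Among the nucleases, ERCC1 was the member with the largest change. It is the DNA-binding partner of ERCC4 in the enzyme that cuts on the 5′ side of the lesion. Probe set 203720_s_at read 9.41, 8.92 and 9.40 in 48 h vehicle arrays and 8.61, 8.29 and 8.57 in 48 h Kbr arrays. Replicate 2 was the lowest in each group, and even so every Kbr array lay below every vehicle array. The means were 9.24 ± 0.28 and 8.49 ± 0.18 (SD, n = 3), so that ERCC1 fell by a log2 change of 0.75 (SE 0.17, 95% interval -1.14 to -0.37, limma adjusted p = 0.00564). At 24 h it read 9.38, 8.83 and 9.13 against 8.87, 8.56 and 8.73, where the highest Kbr array lay just above the lowest vehicle array. That change of -0.40 did not pass without the block (limma adjusted p = 0.199). Within replicate pairs the difference was -0.51, -0.27 and -0.40 at 24 h and -0.80, -0.63 and -0.83 at 48 h.

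The other ERCC1 probe sets, 203719_at and 228131_at, each fell by 0.60 at 48 h (limma adjusted p = 0.0189 and 0.00979), so 3 of 3 ERCC1 probe sets passed. Probe set 203719_at lost its call without 48 h vehicle replicate 1 (adjusted p = 0.0676), without 48 h vehicle replicate 3 (adjusted p = 0.054) and without 48 h Kbr replicate 2 (adjusted p = 0.0748), while the others kept theirs in 12 of 12 such fits. At 24 h the 3 probe sets ranged from -0.43 to -0.21. ERCC1 overlaps POLR1G in the RefSeq annotation, and POLR1G, named for this overlap, stood at 0.51 at 24 h and 0.21 at 48 h, without passing (limma adjusted p = 0.0828 and 0.308). ERCC2 overlaps KLC3, which was not tested.

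ERCC4, the catalytic partner of ERCC1, had a single tested probe set, 235215_at, with 5.59, 5.41 and 5.89 in 48 h vehicle and 5.61, 5.45 and 5.38 in 48 h Kbr arrays. The groups overlapped, and the log2 change of -0.15 (95% interval -0.53 to 0.23) did not pass (limma adjusted p = 0.524). At 24 h it stood at -0.0073 (limma adjusted p = 0.988), and at 0.05 under repeated quantile normalization. The interval at 48 h for ERCC4 overlaps that of ERCC1, and a difference between these genes was not tested.

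ERCC5, the nuclease that cuts on the 3′ side, read 8.78, 9.13 and 8.85 in 48 h vehicle and 8.69, 8.84 and 8.11 in 48 h Kbr arrays. Kbr replicate 3 was the lowest of all 12 arrays, and Kbr replicate 2 lay among the vehicle arrays. The log2 change of -0.37 (95% interval -0.75 to 0.0014) did not pass (limma adjusted p = 0.0988), and leaving out single arrays moved it from -0.52 (adjusted p = 0.0391, without 48 h Kbr replicate 2) to -0.15 (adjusted p = 0.335, without 48 h Kbr replicate 3). At 24 h ERCC5 read 8.91, 9.02 and 8.83 in vehicle and 8.57, 8.54 and 8.64 in Kbr arrays, with no overlap and a change of -0.34 that did not pass (limma adjusted p = 0.254). It was one of 3 members without overlap at 24 h, with ERCC3 and RAD23B, where 31.8% of all genes had none. RefSeq also lists a read-through transcript, BIVM-ERCC5, which shares sequence with ERCC5.

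**Figure D3:**
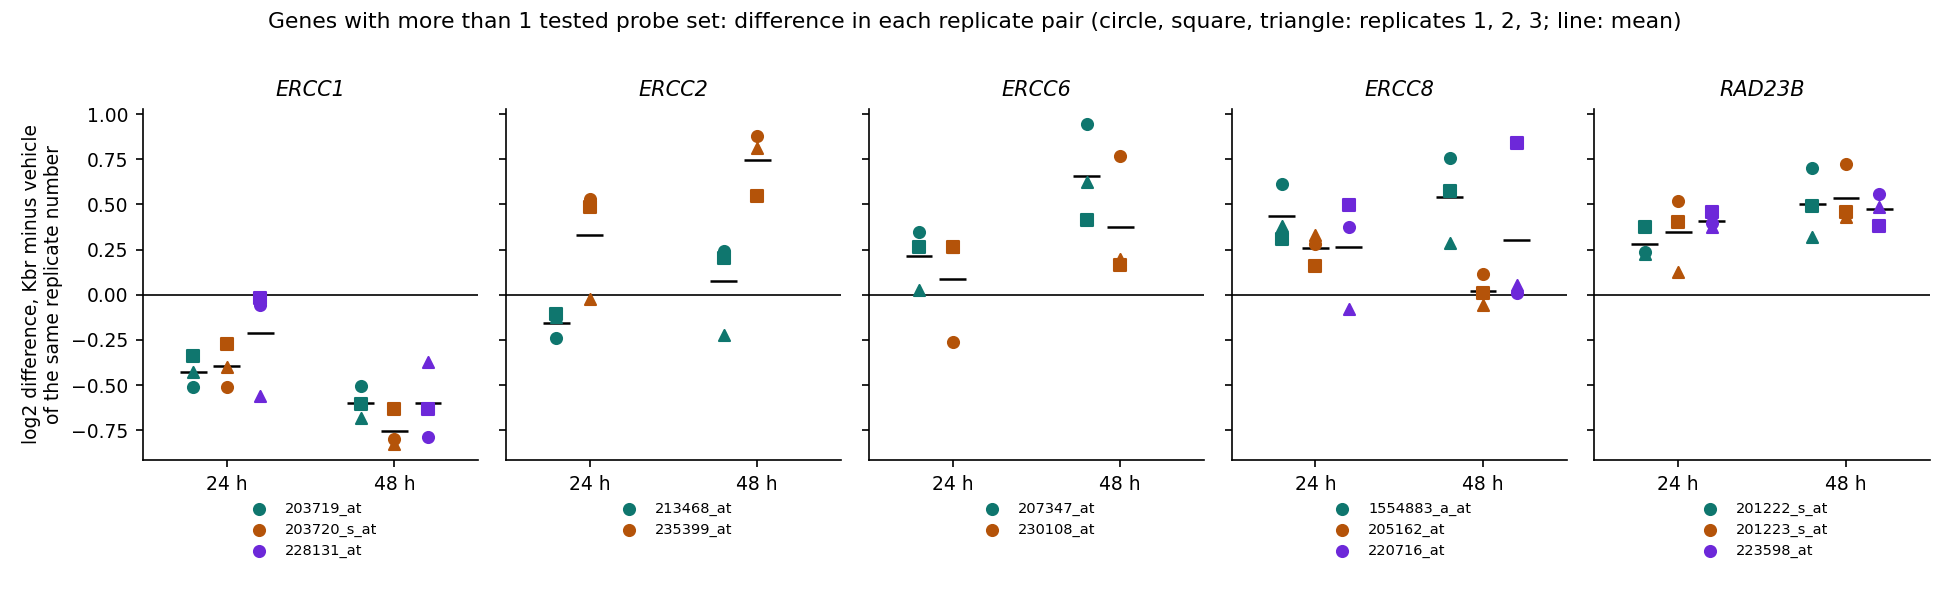
Log2 difference between the Kbr and vehicle arrays of the same replicate number (vertical axis) at 24 and 48 h, for the 5 genes with more than 1 tested probe set. Circles, squares and triangles are replicates 1, 2 and 3, colours are probe sets and lines are means. All ERCC1 points lie below 0 and all RAD23B points above 0, whereas the probe sets of ERCC2 and of ERCC8 at 48 h lie at different heights.

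Counted by probe set, 10 of 18 passed at 48 h, with 7 higher and 3 lower in Kbr cells, where 38.6% of all 19521 probe sets tested passed (limma, adjusted p under 0.05). The 10 belonged to 6 genes: ERCC1 and RAD23B with 3 each, and ERCC2, ERCC3, ERCC6 and ERCC8 with 1 each. At 24 h 0 of 18 passed in the fit without the block (7 at an unadjusted p under 0.05), against 3.74% of all probe sets, and 6 passed with the block, against 19.1%. Probe sets of a gene share their transcripts and are not separate observations.

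The effect at 48 h was then set against that at 24 h by an interaction term, which asks whether the response changed with time. None of the 10 members passed (limma), against 0.141% of all genes, and 1 had an unadjusted p under 0.05, against 16.1%. The differences were -0.36 for ERCC1, 0.37 for ERCC3 and 0.23 for RAD23B (limma adjusted p = 0.515, 0.224 and 0.552). With the block the count was again 0, where 7.36% of all genes passed. So although 3 members passed at 48 h and none at 24 h without the block, a difference between the times was not shown.

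Time alone was examined in each arm. In vehicle cells 0 of 10 members passed between 24 and 48 h (limma; 2 at an unadjusted p under 0.05, against 21.4% of all genes), where 3.29% of all genes passed, and 3 did with the block, against 22.5%: ERCC2 was lower by -0.55 and ERCC8 and XPA higher by 0.39 and 0.33. ERCC8 and XPA had no overlap between the 24 h and 48 h vehicle arrays, as had 26.4% of all genes. In Kbr cells 0 of 10 passed (limma; 2 at an unadjusted p under 0.05, against 29.0%), where 10.6% of all genes passed, and with the block ERCC3 at 0.25 and XPA at 0.34 did, against 30.7%. XPA thus stood higher at 48 h by a like amount in both arms, with an interaction of 0.0052 (95% interval -0.45 to 0.46).

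**Figure D4:**
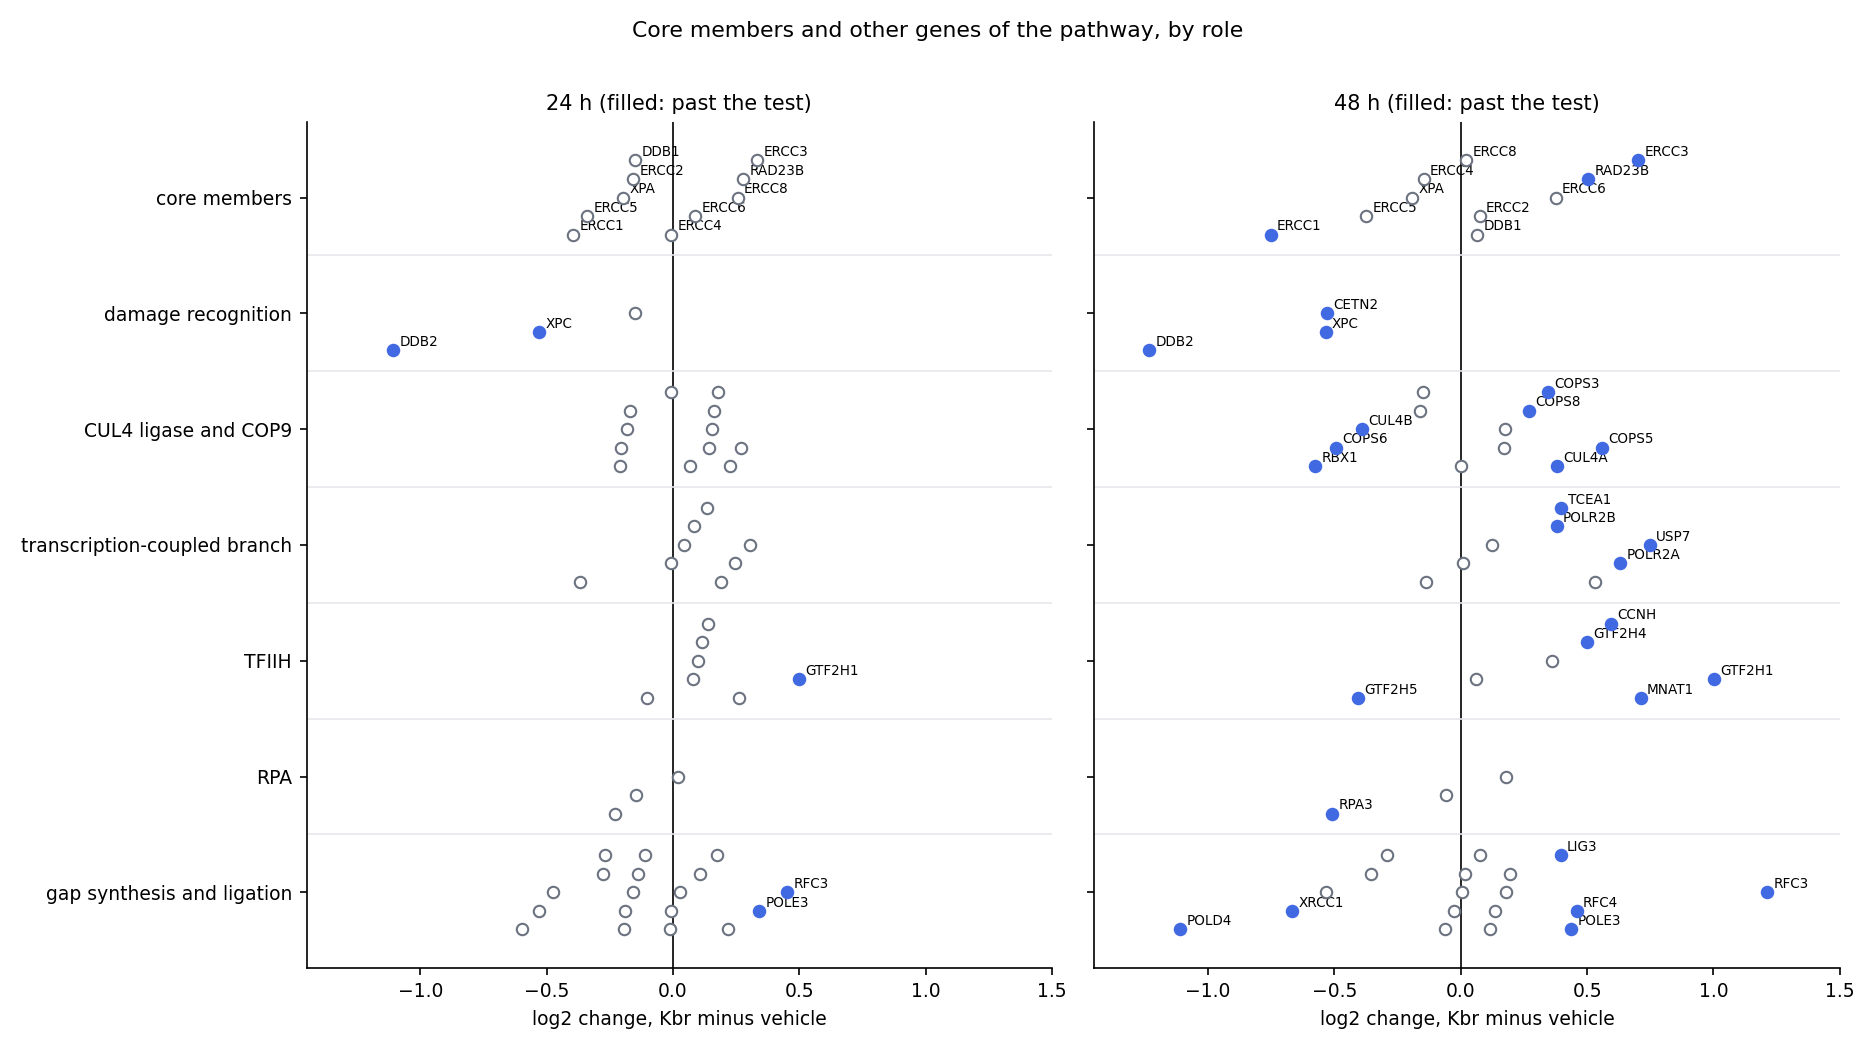
Log2 change of Kbr against vehicle (horizontal axis) at 24 h (left) and 48 h (right) for the 10 core members and 51 other tested genes of the pathway, in rows by role. Filled points passed the test. The 3 damage recognition genes lie left of 0 at 48 h, 4 of 7 TFIIH genes lie right of 0 past the test, and RFC3 at 1.21 is farthest right.

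Over the 51 other tested genes of the pathway, 26 passed at 48 h, 16 higher and 10 lower (limma, adjusted p under 0.05; 42.8% of all genes), with a median log2 change of 0.11. With the block 31 passed at 48 h, 18 higher and 13 lower, against 57.5% of all genes. At 24 h 5 passed, 3 higher and 2 lower (5.74% of all genes), and 11 with the block, against 24.4% of all genes. The 24 h count ran from 1 to 7 when single arrays were left out, and DDB2 was the gene that passed in all 12 such fits. It was 1 without 24 h vehicle replicates 1 or 2, any of the 24 h Kbr replicates, or 48 h Kbr replicate 2, and 2 or 3 without a 48 h vehicle replicate.

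Of the 12 genes of the CUL4 ligase and the COP9 signalosome, which regulates it, 4 rose and 3 fell at 48 h (limma). In that comparison 42.8% of all genes passed. At 24 h 0 passed (limma), against 5.74% of all genes, and 2 had an unadjusted p under 0.05, against 23.7%. Named after their values were seen, the scaffold CUL4A rose by 0.38 while CUL4B and the RING subunit RBX1 fell by 0.39 and 0.58. The signalosome subunits COPS3, COPS5 and COPS8 rose by 0.35, 0.56 and 0.27 and COPS6 fell by 0.49. The COPS8 call was lost without 48 h vehicle replicates 1 or 2 or 48 h Kbr replicates 2 or 3, where the adjusted p reached 0.0993.

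Of the 18 genes of gap synthesis and ligation, 4 rose and 2 fell at 48 h (limma), where 42.8% of all genes passed. With the block 4 were higher and 5 lower past the test, where 57.5% of all genes passed. The 3 gained, named for this change of call, were the polymerase subunits POLD1 and POLE and the ligase LIG1, at log2 changes of -0.54, -0.29 and -0.35 (limma adjusted p = 0.166, 0.115 and 0.0811 without the block, and 0.000295, 0.0218 and 0.0129 with it). RFC3, a subunit of the clamp loader, read 9.56, 9.62 and 9.94 in 48 h vehicle and 10.89, 10.92 and 10.95 in Kbr arrays, the smallest adjusted p of the whole pathway list. It rose 2.32-fold (log2 change 1.21, limma adjusted p = 4.99e-05), and by 0.45 at 24 h (limma adjusted p = 0.0388), a call lost in 7 of 12 fits that left out 1 array, with adjusted p up to 0.152. PCNA, the clamp itself, read 13.35, 13.64 and 13.68 against 13.29, 13.58 and 13.73 at 48 h, with overlap and a change of -0.03 (limma adjusted p = 0.914). The others past the test, named after their values were seen, were RFC4, POLE3 and LIG3, higher by 0.46, 0.44 and 0.40, and POLD4 and XRCC1, lower by -1.11 and -0.67. POLD4 is the smallest subunit of DNA polymerase delta, and XRCC1 is the scaffold of the ligase LIG3. The XRCC1 call was lost without 48 h vehicle replicate 1 or 48 h Kbr replicate 3, where the adjusted p reached 0.0686.

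For the 2 members with the largest absolute change at 48 h, ERCC1 and ERCC3, the genes of most like pattern over the 12 arrays were found by Pearson's r, as a description only. The 12 arrays fall into the same 4 groups for every gene, and r includes the differences between those groups. Closest to ERCC1 were SLC25A11, RAB15 and CDK5, with r of 0.982, 0.981 and 0.980, and log2 changes at 48 h of -0.50, -0.84 and -0.55. Closest to ERCC3 were CDKN1A, NFATC3 and UBE2Q1, with r of 0.976, 0.969 and 0.969, and log2 changes at 48 h of 1.30, 0.74 and 0.40. CDKN1A encodes an inhibitor of cyclin-dependent kinases, and CDK5 is a member of the kinase family.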

How the data were processed

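The deposited values are log2 expression values of 54675 probe sets, made by the authors with GCRMA per the submitters' processing notes (no version is given in the sources used here). Whether the arrays of the other compounds were normalized in the same run is not known here. Its background model rests on probe sequence, so values near the floor depend on that model. Groups came from the sample titles. Probe sets were named from the platform annotation (1 symbol for 41091, several for 1801, none for 11721), and those with 1 symbol entered the tests where their log2 value was above 4 in at least 3 of 12 arrays: 10665 genes and 19521 probe sets. For a gene, the probe set with the highest mean stood.

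A model of the 4 group means over all 12 arrays was fitted with limma 3.58.1 in R 4.3.3 (lmFit, eBayes; two-sided, Benjamini-Hochberg over all features, threshold 0.05), tested on simulated data. Past the test, rose and fell refer to this fit unless the block is named. An exact test of 3 against 3 arrays could not go below 0.1. P values set a difference against the spread between these biological replicates, and the number of arrays limits the precision. In the fit without the block, that spread includes the part shared by arrays of the same replicate number.

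Deviations from group means correlated at 0.279 to 0.701 over the 18 pairs of arrays from different groups that shared a replicate number, and at -0.454 to -0.0613 over the 36 that did not. Deviations within a group cancel, so the negative range follows in part from the positive one and is not separate evidence. Every array, 12 of 12, correlated best with an array of its own number. The numbers were therefore taken to pair the arrays, and the fit with the number as a block was an alternative. Others were the filter, scaling, probe set rule, groups fitted, variance model and each array left out.

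The members and lists were chosen with earlier results of these data known. Named were all 10 members and, of 53 other pathway genes, up to 4 with the smallest p past the test at each time, plus XPC, DDB2, PCNA and RPA1. For likeness, the 3 genes of highest r to each of the 2 members with the largest change were named.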

Additional observations from a re-analysis of the deposited data

How the results depend on the processing

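With the replicate block, which uses the pairing by replicate number, the members past the test were 4 at 24 h in place of 0, with 3 for vehicle cells and 2 for Kbr cells between times in place of 0, the member probe sets at 24 h were 6 in place of 0, with 3 and 2 in place of 0 between times in vehicle and Kbr cells, and the other pathway genes 11 in place of 5 at 24 h and 31 in place of 26 at 48 h. It left the members' counts at 48 h and for the difference between the times as they were. Over all genes the block raised the share past the test to 24.4% at 24 h and 57.5% at 48 h. Between the times that share was 22.5% in vehicle cells and 30.7% in Kbr cells. With an intensity trend and robust variance 1 member probe set passed at 24 h. The other pathway genes at 24 h were 3 with the array median subtracted, 2 in a fit of the compared groups alone and 1 to 7 with single arrays left out. These alternatives for the other pathway genes were chosen after seeing the data.

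At 48 h the member count stayed between 3 and 4 in every alternative run, and ERCC1, ERCC3 and RAD23B passed in 12 of 12 fits that left out 1 array, with changes of -0.91 to -0.65, 0.62 to 0.77 and 0.45 to 0.58. Directions turned only for changes that had not passed. ERCC2 at 24 h was 0.0868 as a mean of probe sets and -0.416 to 0.0794 with single arrays left out, and at 48 h -0.0846 to 0.207. ERCC4 at 24 h was 0.0485 after repeated quantile normalization and -0.16 to 0.19 with single arrays left out. ERCC8 at 48 h was -0.0192 after repeated quantile normalization and -0.0348 to 0.085 with single arrays left out. PCNA ranged from -0.0094 to 0.24 at 24 h and from -0.13 to 0.10 at 48 h, and RPA1 at 48 h from -0.12 to 0.0085. The cause was not tested.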

Other observations

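Between 24 and 48 h in vehicle cells, 2 of the 51 other pathway genes passed the test, both lower at 48 h (limma; 3.29% of all genes). They were the clamp loader subunits RFC3 and RFC5, at log2 changes of -0.52 and -0.44 (limma adjusted p = 0.036 and 0.0335). With the replicate block 14 passed, against 22.5% of all genes. The mean log2 value of RFC3 was 10.23 and 9.71 in vehicle cells at 24 and 48 h, and 10.68 and 10.92 in Kbr cells. Of the 18 genes of gap synthesis and ligation, 17 had a negative change with time in vehicle cells, with a median of -0.28 against -0.02 over all genes tested. Only 2 of the 18 passed the test, and the share of all genes with a negative change was not counted.

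With the block 25 of the 51 passed between 24 and 48 h in Kbr cells, against 30.7% of all genes. Without it 7 passed, 3 higher and 4 lower (limma; 10.6% of all genes). CDK7, the kinase of TFIIH, rose by 0.81 and GTF2H1 by 0.70, and UVSSA, the partner of USP7, by 0.51. GTF2H5, CETN2, LIG1 and POLD4 fell by 0.36, 0.55, 0.56 and 0.73. These genes were named after their values were seen, and leaving out single arrays was not run for these time comparisons of the other pathway genes.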
